A study of Homo sapiens with 9 samples.

Results

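The 2 peak lists compared here map accessible chromatin in HEK293T cells that lack IGF2BP1 and in control cells that received a guide without a target. Every peak of both lists was used, 50917 in the IGF2BP1 knockout list and 39194 in the control list, out of 194414 peaks in the whole series, and a peak was called shared when it had 1 bp or more in common with a peak of the other list. HEK293T is an established line from human embryonic kidney. ATAC-seq reads open chromatin through the Tn5 transposase, which inserts sequencing adapters where DNA is free of tightly packed nucleosomes, so that a peak marks a stretch of open DNA such as an active promoter or enhancer. The series holds 9 libraries in 4 groups, of which 5 libraries enter here. The control group is labelled WT (CRISPRCas9 non-targeting control) and has 2 libraries, from batches 2 and 3. The knockout group is labelled IGF2BP1 gene knockout and has 3 libraries, from batches 1, 2 and 3. The guides came on plasmids that do not integrate, with 3 guide RNAs and GFP for the knockout and a guide without a mammalian target for the control, and neither group was otherwise treated. The knockout is a single clone grown from 1 sorted cell, and the labels do not state whether the control is one as well.

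The authors deposited 1 list of positions for each group, with no peak height and no value for any single library. There is therefore no spread between replicates, no test was made, and each 95% interval given covers counting error only. The depth behind each list is unknown. Clone, genotype, the number of libraries and the presence of batch 1 all differ between the 2 lists and cannot be told apart. The chromatin was checked against cell type markers. Of 15 genes chosen for embryonic kidney and HEK293 epithelium, the same 10 had a peak within 1 kb of their start in both lists (among them LHX1, WT1, SALL1, KRT18 and VIM), and the other 5, such as PAX2, PAX8, EYA1 and KRT8, had none in either. Of 8 blood cell markers, 5 had no such peak in either list, among them PTPRC, CD14, HBB and ITGAM. SPI1 had one in both, and CD3E (450 bp) and HBA1 (704 bp) had one in the knockout list alone. Of the markers of endothelium, hepatocytes and muscle, 1 of 5, 1 of 4 and 1 of 4 had a peak, in both lists each time.

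IGF2BP1 is an RNA-binding protein of the cytoplasm. It recognises messenger RNAs, many of them marked with N6-methyladenosine, and protects them from decay, with MYC, IGF2 and ACTB among its known targets. It is called oncofetal because it is abundant in the embryo, silent in most adult tissues and made again in many tumours. It is not known as a DNA-binding factor, so a map of open chromatin in its absence describes the state of the genome in these cells and not its binding sites. The series title places the IGF2BP family beside innate immune signalling in leukemia stem cells.

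The promoters at which the lists differed were of several kinds, and the DNA just upstream of 8 of them is shown. They are examples and do not describe whole classes of promoters. Each stretch is the 250 bases before the RefSeq start of the gene (GRCh38.p14), written 5′ to 3′ on the strand of the gene. Capitals mark each match, on either strand, to a set of short motifs: SP1 (GGGCGG), the TATA box (TATAAA), AP-1 (TGANTCA), the E-box (CACGTG), CRE (TGACGTCA), YY1 (AANATGGCG), NFY (CCAAT), a pair of half-sites read by interferon regulatory factors (GAAANNGAAA, called the IRF pair here) and NRF1. Overlapping matches run together. The first 4 had the widest peak in the knockout list alone or stand for the gene groups described further on, and their DNA is rich in CpG. TMEM132E lies at chr17:34579332-34579581, KCND2 at chr7:120272925-120273174, GRIA4 at chr11:105610456-105610705 and FBLN7 at chr2:112138135-112138384, all on the plus strand.
TMEM132E: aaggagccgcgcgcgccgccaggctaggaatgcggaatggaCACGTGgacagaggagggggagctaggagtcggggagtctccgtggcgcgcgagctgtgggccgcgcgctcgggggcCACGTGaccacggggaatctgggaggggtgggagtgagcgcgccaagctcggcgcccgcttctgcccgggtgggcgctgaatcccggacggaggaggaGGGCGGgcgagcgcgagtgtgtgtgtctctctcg
KCND2: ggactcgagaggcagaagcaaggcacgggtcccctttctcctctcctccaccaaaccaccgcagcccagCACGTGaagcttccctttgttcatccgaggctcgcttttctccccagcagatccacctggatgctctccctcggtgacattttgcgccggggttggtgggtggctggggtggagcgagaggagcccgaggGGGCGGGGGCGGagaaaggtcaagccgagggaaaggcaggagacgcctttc
GRIA4: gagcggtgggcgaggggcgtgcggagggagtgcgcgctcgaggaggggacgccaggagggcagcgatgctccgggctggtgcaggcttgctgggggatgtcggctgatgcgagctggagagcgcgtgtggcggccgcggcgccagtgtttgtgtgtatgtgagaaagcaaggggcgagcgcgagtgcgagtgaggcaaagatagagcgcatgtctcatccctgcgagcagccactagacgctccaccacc
FBLN7: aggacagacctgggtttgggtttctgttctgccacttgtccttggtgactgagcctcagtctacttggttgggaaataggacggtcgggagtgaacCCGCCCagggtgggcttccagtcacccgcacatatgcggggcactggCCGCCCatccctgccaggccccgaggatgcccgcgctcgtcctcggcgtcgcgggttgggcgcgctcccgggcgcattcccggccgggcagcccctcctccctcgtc

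ABLIM1, at chr10:114685004-114685253 on the minus strand, had its promoter peak in the control list alone. Its upstream DNA is A- and T-rich with a TATA box near the start, which is not typical of its class. TATAAA was in 3.16% of all promoters read with a control peak alone, against 10.8% with a knockout peak alone. Their median ratios of observed to expected CpG were 0.651 and 0.562. The other 3 sequences come from genes of antiviral defence with a peak in the knockout list alone. TREX1, IL11 and CCL28, immune genes also with a peak there alone, have no IRF pair in this stretch and are not shown. The IRF pair was added to the motifs after the immune promoters had been read. OAS3 lies at chr12:112938224-112938473 on the plus strand, GBP1 at chr1:89065209-89065458 and IFNL3 at chr19:39245251-39245500 on the minus strand, and each carries at least 1 IRF pair.
ABLIM1: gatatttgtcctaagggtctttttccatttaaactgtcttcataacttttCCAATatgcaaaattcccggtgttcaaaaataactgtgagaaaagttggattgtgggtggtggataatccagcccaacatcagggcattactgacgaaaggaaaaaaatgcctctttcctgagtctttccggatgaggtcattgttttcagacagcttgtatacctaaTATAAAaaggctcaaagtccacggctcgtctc
OAS3: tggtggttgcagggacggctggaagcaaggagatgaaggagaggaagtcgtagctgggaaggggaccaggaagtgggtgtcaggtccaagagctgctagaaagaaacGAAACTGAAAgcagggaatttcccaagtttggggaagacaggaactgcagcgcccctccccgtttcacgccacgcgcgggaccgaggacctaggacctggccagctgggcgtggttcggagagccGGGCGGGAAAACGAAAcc
GBP1: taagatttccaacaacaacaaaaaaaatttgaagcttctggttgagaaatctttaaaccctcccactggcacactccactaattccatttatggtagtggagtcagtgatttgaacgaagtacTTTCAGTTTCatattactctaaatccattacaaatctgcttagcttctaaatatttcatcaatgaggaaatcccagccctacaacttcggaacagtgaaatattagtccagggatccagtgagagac
IFNL3: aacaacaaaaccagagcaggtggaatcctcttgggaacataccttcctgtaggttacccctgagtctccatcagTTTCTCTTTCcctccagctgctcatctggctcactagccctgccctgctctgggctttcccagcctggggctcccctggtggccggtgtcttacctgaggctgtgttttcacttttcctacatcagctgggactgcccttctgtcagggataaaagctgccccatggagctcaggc

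The knockout list was the longer one and held most of the control list within it. It covered 47.0 Mb against 33.6 Mb in the control, and 30.1 Mb lay in both. In the knockout list 15892 peaks, 31.2% (95% Wilson interval 30.8 to 31.6), had no control counterpart, and they covered 11.3 Mb. In the control list 3941 peaks, 10.1% (9.76 to 10.4), had no knockout counterpart, and they covered 2.04 Mb. The knockout-only peaks stood apart from control peaks, at a median of 24.9 kb from the nearest one, and 362 of them (2.28%) lay less than 1 kb away. More than 100 kb separated 2018 of them (12.7%) from any control peak. For control-only peaks the median distance was 11.4 kb, 299 (7.59%) lay within 1 kb of a knockout peak and 219 (5.56%) lay over 100 kb away.

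Peaks present in 1 list were narrow. Knockout-only peaks had a median width of 663 bp, against 936 bp for knockout peaks that overlapped a control peak, and control-only peaks had a median of 478 bp against 815 bp. The share without a counterpart dropped steeply with width. Below 500 bp, 65.3% of knockout peaks had none. From 1500 bp upwards it was 5.12%, which is 243 of 4744 peaks. The control list ran from 33.1% below 500 bp to 0.382% from 1500 bp, where 11 of 2878 peaks were control-only. Wide peaks seen in the control were nearly all present in the knockout, while a small set of wide knockout peaks had no control counterpart. When the knockout list was limited to its 39194 widest peaks, so that both lists had equal length, the numbers became 9314 knockout-only and 9060 control-only peaks. Lists of equal length give nearly equal numbers by construction.

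**Figure D1:**
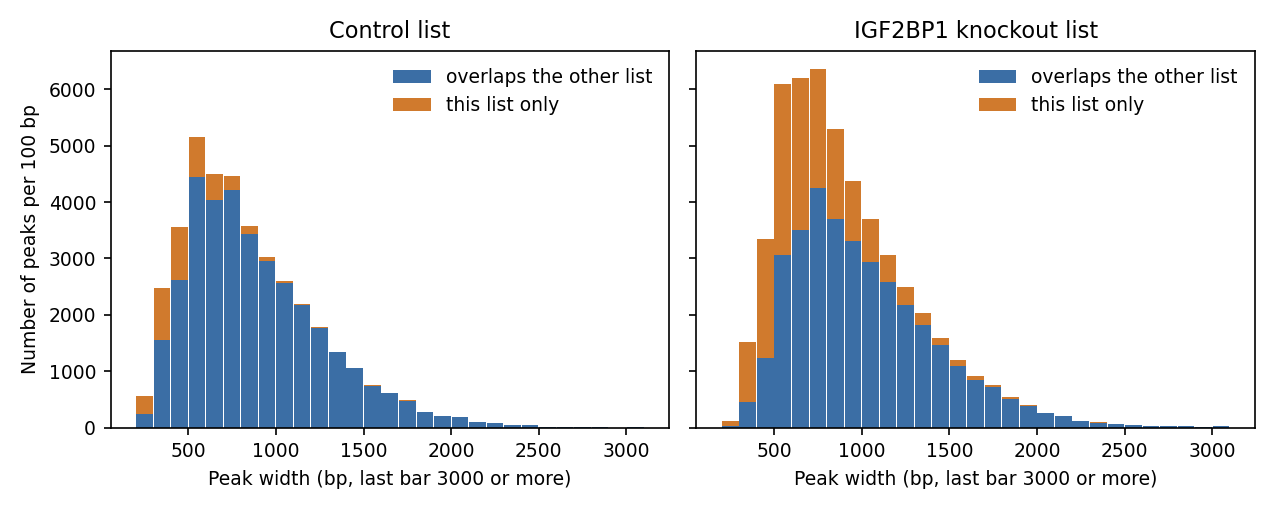
Number of peaks (vertical axis, per 100 bp of width) by peak width in bp (horizontal axis) in the control list and in the IGF2BP1 knockout list, with peaks that overlap the other list in blue and peaks of that list only in orange. In both lists orange takes its largest share at narrow widths, 65.3% of knockout peaks and 33.1% of control peaks below 500 bp, against 31.2% and 10.1% of the whole lists.

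Gene starts held few of the one-list peaks. Here a start means the RefSeq start, or either end for genes whose start the RefSeq promoter table does not hold. Starts were known for 15842 of 20037 protein-coding and 11461 of 18303 lncRNA genes. Some of the positions used are therefore the far ends of genes. Of knockout-only peaks, 7.69% lay within 1 kb of the start of a protein-coding or lncRNA gene, against 38.5% of knockout peaks that overlapped a control peak. A further 54.2% lay elsewhere inside an annotated gene, 7.60% lay between genes within 10 kb of a start, and 30.5% lay between genes over 10 kb from any start. Control-only peaks were placed alike, with 9.03% at gene starts, 54.5% elsewhere in genes and 26.7% between genes over 10 kb from a start. Seen from the other side, 8.30% of knockout peaks at gene starts (1222 of 14716) lacked a control counterpart, against 40.6% elsewhere in genes and 42.1% between genes over 10 kb away. In the control list the same shares were 2.56% (356 of 13910), 14.5% and 13.6%. Peaks at gene starts were also the wider ones, with a median of 1175 bp in the knockout list against 741 bp elsewhere in genes, and the part of width in the placement was not tested.

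Shared peaks were wider in the knockout list. Of 34606 peaks that overlapped exactly 1 peak of the other list in both directions, 25956 (95% Wilson interval of the share 74.5 to 75.5%) were wider in the knockout, 8527 were narrower and the rest had the same width. The median width was 814.5 bp in the control and 932 bp in the knockout, and the median log2 ratio of widths was 0.14 (0.13 to 0.14), or 1.10-fold. Width at least doubled at 1012 of these peaks and at most halved at 51. The extra width lay on both sides, with the left edge a median of 29 bp further out and the right edge 30 bp. The difference was larger at narrow peaks. In 4 equal classes of control width, from narrowest to widest, the median log2 ratio was 0.38, 0.16, 0.10 and 0.05, and in 4 classes of the geometric mean width of both lists, which favours neither list, it was 0.23, 0.16, 0.13 and 0.09. Joined peaks followed the same direction: 294 knockout peaks spanned 2 or more control peaks, and 67 control peaks spanned 2 or more knockout peaks.

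At promoters the extra width lay more on the gene side. Over 9579 protein-coding genes whose start lay within the control peak, the reach upstream of the start had a median of 531 bp in the control and 564 bp in the knockout, with a median outward shift of 19 bp. The reach downstream, into the gene, had a median of 569 bp in the control and 647 bp in the knockout, with a median shift of 42 bp. The downstream edge lay further out in the knockout at 73.3% of these promoters and the upstream edge at 64.7%.

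The IGF2BP genes themselves kept their promoter peaks, as did all but 1.12% of protein-coding genes with a control promoter peak. At IGF2BP1 (chromosome 17) the promoter peak ran from 48995574 to 48998007 in the control (2434 bp) and from 48995288 to 48997679 in the knockout (2392 bp), among the widest 1% of either list. A second peak inside the gene measured 720 bp in the control and 793 bp in the knockout. Peak positions do not show the edit, so these values do not test the knockout. At IGF2BP2, a paralog on chromosome 3 that was not targeted here, the promoter peak measured 898 bp in the control and 1152 bp in the knockout. The knockout list held 4 more peaks within the gene that had no control counterpart, of 712, 1324, 707 and 681 bp, the widest from 185701819 to 185703142. At IGF2BP3, the third family member, on chromosome 7, all 3 peaks were wider in the knockout. The promoter peak measured 564 bp in the control and 1051 bp in the knockout, and the peaks inside the gene measured 518 and 993 bp in the control against 1009 and 1257 bp.

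Promoters were then compared gene by gene. A gene was said to have a promoter peak when a peak lay within 1 kb of its RefSeq start, or of either end for the genes whose start the RefSeq promoter table does not hold. For genes placed by either end, the peak may lie at the far end of the gene and not at its start. Of 20037 protein-coding genes, 12984 (64.8%) had one in the control list and 13390 (66.8%) in the knockout list. Of the 7053 genes without a promoter peak in the control, 552 had one in the knockout, 7.83% (7.22 to 8.48). Of the 12984 genes with one in the control, 146 had none in the knockout, 1.12% (0.957 to 1.32). These 2 shares are the background for the gene groups that follow, in which the words knockout-only and control-only have this meaning. The knockout-only promoters rested on a peak without any control counterpart at 511 of 552 genes, and at the other 41 on a peak that overlapped a control peak lying further from the start. Of the 146 control-only promoters, 133 rested on a peak without any knockout counterpart. The other 13 rested on a peak that overlapped a knockout peak lying further from the start. At 405 genes the control had no peak within 5 kb, and 67 control-only promoters had no knockout peak within 5 kb. With lists of equal length, which leave out narrow knockout peaks, 397 promoters were knockout-only and 375 control-only. Genes placed by either end made up 163 of the 552 knockout-only and 51 of the 146 control-only promoters.

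The widest knockout-only promoters without a control peak within 5 kb belonged to genes of varied function. TMEM132E, a membrane protein tied to hearing, had a peak of 2601 bp from 34579156 to 34581756 on chromosome 17, wider than 99.7% of knockout peaks, which it shared with a divergent lncRNA. CBS, the first enzyme of transsulfuration, had a peak of 2521 bp from 43074536 to 43077056 on chromosome 21. CBS has a near-identical copy in GRCh38, so reads of the 2 copies may not have been told apart. KCND2, the pore subunit of a fast voltage-gated potassium channel of neurons, had a peak of 1933 bp. The others were KRTAP10-4, a hair keratin-associated protein of a multigene family (1974 bp, by either gene end), NFIC, a nuclear factor I transcription factor (1870 bp), C1QTNF8, a secreted protein with a C1q domain (1864 bp), NPAS1, a transcription factor of neurons (1699 bp), and TTC7B, a scaffold of the phosphatidylinositol 4-kinase complex (1699 bp).

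Control-only promoters were narrower. SERPINF1, which encodes a secreted inhibitor of blood vessel growth, had the widest, at 1792 bp (by either gene end, chromosome 17). It was followed by MCCD1 (1653 bp, chromosome 6), ERFL, an ETS-family relative (1321 bp, chromosome 19), and LOC101929601 (1218 bp, by either end, chromosome 8). The next were ABLIM1, an actin-binding protein (1151 bp), and AIFM2, an oxidoreductase that protects cells from ferroptosis (1132 bp), both on chromosome 10, then VSTM2L (1110 bp) and NTMT2 (1098 bp).

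Among promoter peaks that overlapped 1 to 1 and measured at least 300 bp in both lists, the largest increase was at OSTN, which encodes the hormone osteocrin. Its peak measured 304 bp in the control and 1636 bp in the knockout, a log2 ratio of 2.43. Next came CALHM2, a large-pore channel (356 and 1429 bp, 2.01), SYTL1, an effector of Rab27 in secretion (493 and 1861 bp, 1.92), and ARHGAP8, a GTPase-activating protein (510 and 1858 bp, 1.87). FGF1, a fibroblast growth factor (518 and 1812 bp, 1.81), and KCNA1, a voltage-gated potassium channel (533 and 1811 bp, 1.76), followed. The largest decreases were smaller. PERP, a p53 target found in desmosomes, measured 2451 bp in the control and 1052 bp in the knockout, a log2 ratio of -1.22. Next were the chemokine CCL16 (677 and 314 bp, -1.11), the germ cell gene TEX19 (2201 and 1045 bp, -1.07), and PIK3IP1, an inhibitor of PI3 kinase (787 and 378 bp, -1.06). DDR2, a collagen receptor, measured 1439 bp in the control and 703 bp in the knockout (-1.03).

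Genes of the extracellular matrix had the highest share of knockout-only promoters among the lists with at least 10 members lacking a control peak. Of 145 genes for collagens, laminins, integrins and matrix proteases, 85 had a promoter peak in the control and 102 in the knockout. Knockout-only promoters numbered 17 of the 60 without a control peak, 28.3% (18.5 to 40.8), against 7.83% of all protein-coding genes, and 0 were control-only. FBLN7, a fibulin of cell adhesion, had the widest peak (1477 bp), followed by ADAMTSL5, a protein of microfibrils (1252 bp), COL6A6, a collagen VI chain (1074 bp), and ADAMTS5, a protease that cuts aggrecan (1055 bp). The other 13 included COL6A5, COL16A1, COL21A1, LAMB3, LAMB4, FBN3, ITGA10, ITGB2, MMP3, MMP10, MMP23B and ADAMTS4, with peaks between 336 bp (LAMB3) and 1026 bp (COL21A1). They lie on 8 chromosomes. With lists of equal length the share was 21.7%, against 5.63% of all protein-coding genes.

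Genes of nerve cell signalling came next. Of 103 neurotransmitter receptors, 51 had a promoter peak in the control and 63 in the knockout. Knockout-only promoters numbered 14 of 52 (26.9%, 16.8 to 40.3) and control-only ones 2 of 51 (3.92%, 1.08 to 13.2). The latter interval includes the control-only background of 1.12%. The widest knockout-only ones were at GRIA4, an AMPA-type glutamate receptor subunit (1643 bp), and GLRA1, a glycine receptor subunit (1438 bp). HTR1B, a serotonin receptor (1048 bp), and CHRM1, a muscarinic acetylcholine receptor (1046 bp), followed. Serotonin receptors made up 5 of the 14, with HTR1A, HTR1E, HTR2C and HTR6 beside HTR1B. The wider of the 2 control-only promoters was at GRIK3, a kainate-type glutamate receptor subunit (951 bp). Among 135 voltage-gated and potassium channels, 11 of 63 without a control peak were knockout-only (17.5%, 10.0 to 28.6) and 0 were control-only. They included KCND2 with the peak of 1933 bp, KCNMA1, the pore of the large-conductance calcium-activated potassium channel (1599 bp), its accessory subunit KCNMB2 (1304 bp), KCNQ3, a subunit of the M channel (1478 bp), and the sodium channels SCN1A (572 bp) and SCN3A (561 bp). Of 64 neural lineage genes, 4 of 22 were knockout-only (18.2%, 7.31 to 38.5), an interval that includes the background of 7.83%. Among them were the adhesion molecule CHL1 (1092 bp) and the secretory granule proteins SCG2 (736 bp) and SCG3 (475 bp).

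Solute carriers, a large family of membrane transporters, gave 19 knockout-only promoters of 150 (12.7%) and 0 control-only ones. The widest were SLC17A1, a phosphate and urate transporter of the kidney (1510 bp), SLC17A7, which loads glutamate into synaptic vesicles (1468 bp), SLC18A3, which loads acetylcholine (1345 bp), and SLC24A3, a sodium-calcium exchanger (1328 bp). The SLC18A3 peak also counted for CHAT, the acetylcholine-making enzyme that shares its locus, and the SLC17A7 peak overlapped a control peak lying beyond the 1 kb window.

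Adhesion and signalling families showed smaller counts. Of 53 clustered protocadherins, cell surface proteins whose alternative promoters sit in a row on chromosome 5, 10 had a promoter peak in the control and 18 in the knockout. The 8 knockout-only ones were 18.6% of 43 (9.74 to 32.6) and came from all 3 clusters, with PCDHA8 (1037 bp), PCDHB2 (962 bp), PCDHGA7 (788 bp) and PCDHA5 (687 bp) the widest. The 10 with a peak in both lists were not wider, with a median log2 ratio of 0.00 and 5 wider against 5 narrower. Their sequences are alike, so the counting of reads within the cluster is uncertain. Cadherins outside the clusters gave 3 knockout-only promoters of 21 (14.3%, 4.98 to 34.6), an interval that includes the background of 7.83%. These were CDH8 (1233 bp), CDH18 (792 bp) and DSC1 (590 bp), and 1 was control-only, PCDH7 (419 bp). Ligands and receptors of the WNT, FGF, BMP and Notch pathways gave 5 of 27 (18.5%) and 0 control-only. These were FGF10 (1369 bp), WNT7B (1316 bp, a peak that overlapped a control peak further away), DLL1 (727 bp, also at an end of FAM120B), FGF17 (692 bp, also at an end of DMTN) and WNT3A (542 bp). WNT7B, DLL1 and FGF17 were placed by either end. The FGF17 peak lay at the higher-coordinate end of its gene, so it may not mark an FGF17 promoter.

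**Figure D2:**
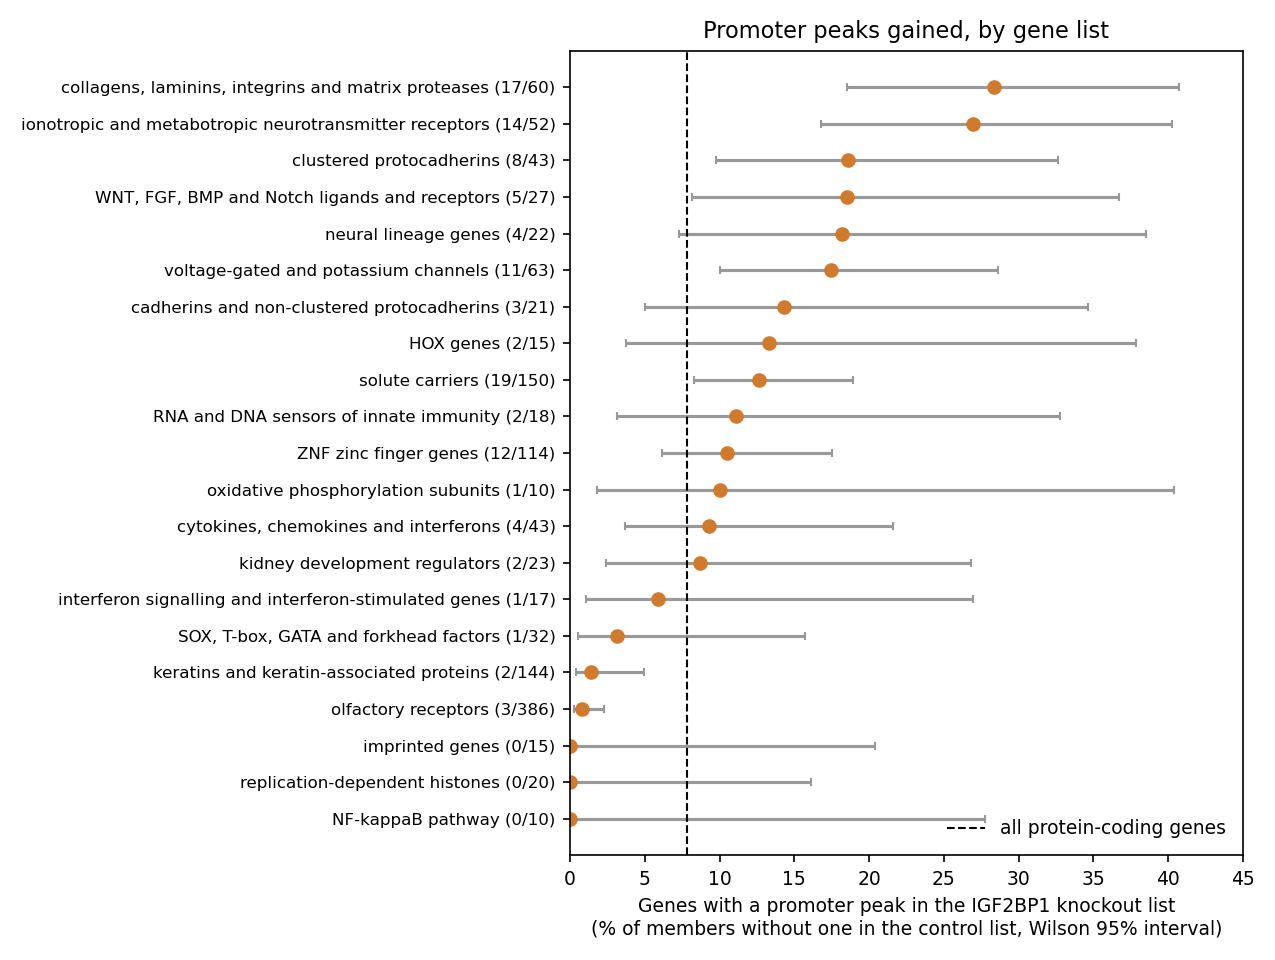
Share of genes with a promoter peak in the IGF2BP1 knockout list among those without one in the control list (horizontal axis, %), for each gene list with at least 10 such genes, with 95% Wilson intervals as bars and counts in brackets. Matrix genes (28.3%) and neurotransmitter receptors (26.9%) lie furthest above the dashed line for all protein-coding genes (7.83%), and olfactory receptors (0.777%) lie below it.

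Genes of innate immunity, named in the series title, showed few promoters in 1 list only. Of 36 sensors of RNA and DNA, 18 had a promoter peak in the control and 20 in the knockout. The 2 knockout-only ones, 11.1% of 18, were OAS3, which makes the 2-5A messenger that activates RNase L (836 bp, from 112938042 to 112938877 on chromosome 12), and TREX1, a DNase that clears cytosolic DNA (711 bp). OAS1 and OAS2, the neighbours of OAS3, had no promoter peak in either list. Of 61 interferon signalling and interferon-stimulated genes, 44 had a promoter peak in each list. GBP1, a guanylate-binding protein induced by interferon (912 bp, from 89064299 to 89065210 on chromosome 1), was knockout-only, and IFI35 (465 bp, chromosome 17) was control-only. Of 62 cytokines, chemokines and interferons, 4 of 43 were knockout-only (9.30%) and 0 control-only: IL11 (1591 bp), CX3CL1 (778 bp), CCL28 (592 bp) and IFNL3, a lambda interferon (549 bp), which has near-identical relatives beside it. The NF-kappaB list had 36 of 46 promoter peaks in each list, with 0 in one list only. These shares lie close to the background of 7.83%.

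The width of shared immune promoters is a separate measure. Over all protein-coding genes with a 1-to-1 shared promoter peak, the median log2 ratio was 0.10, and 75.6% of 12495 were wider in the knockout. For the 18 RNA and DNA sensors the median was 0.24, and 17 were wider and 1 was narrower. IFIH1, the cytosolic sensor also called MDA5, measured 855 bp in the control and 1327 bp in the knockout (log2 ratio 0.63), TLR3 497 and 760 bp (0.61), NLRC5 552 and 801 bp (0.54), and RIGI 778 and 1125 bp (0.53). These 4 were picked after their values were seen. The sensors had narrower control peaks, with a median of 920.5 bp against 1146 bp for all promoters, and over all protein-coding promoters with a control peak of 750 to 1000 bp the median ratio was 0.16 with 83.4% wider. Interferon genes had a median of 0.14 (32 wider, 9 narrower), NF-kappaB genes 0.08 (27 and 8), and cytokines 0.05 (13 and 6).

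The genes that IGF2BP1 is best known for kept their promoter peaks, as most genes did. Of all protein-coding genes with a control promoter peak, 1.12% had none in the knockout. A count of 0 lost in lists of the size given here is therefore near the background. In the list of the insulin-like growth factor axis and IGF2BP1 mRNA targets, 32 of 41 genes had a promoter peak in each list, with 0 in one list only, and shared peaks had a median log2 width ratio of 0.05 (19 wider, 12 narrower). MYC measured 1297 bp in the control and 1355 bp in the knockout, ACTB 1440 and 1724 bp, CTNNB1 1156 and 1175 bp, and IGF1R 1551 and 1516 bp, while IGF2 had no promoter peak in either list. All 21 writers, erasers and readers of N6-methyladenosine had a promoter peak in both lists, with a median ratio of 0.08 and the largest difference at YTHDF1, a reader (924 and 1845 bp, 1.00). Of 23 oncofetal genes, 16 had a promoter peak in the control and 15 in the knockout. ARID3A, a DNA-binding factor of embryonic cells, was the control-only one (771 bp, by either end).

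Developmental regulators differed at single genes. Among 39 HOX genes, HOXA9 (1432 bp, from 27165423 to 27166854 on chromosome 7) and HOXC8 (778 bp) were knockout-only. They made up 13.3% of the 15 without a control peak (3.74 to 37.9). The 21 shared HOX peaks had a median log2 width ratio of 0.01, with 11 wider and 10 narrower. Among 92 SOX, T-box, GATA and forkhead factors, SOX14 (1022 bp) was knockout-only and FOXC1 (822 bp) control-only. SOX14 was 1 of 32 without a control peak (3.1%, 0.554 to 15.7). Among 50 kidney development regulators, TFAP2A (819 bp) and NPHS1, the slit diaphragm protein nephrin (640 bp, on a peak shared with KIRREL2), were knockout-only. They were 8.70% of the 23 without a control peak (2.42 to 26.8), and FOXC1 was again the control-only member. The intervals of these groups all include the background of 7.83%. ZNF zinc finger genes gave 12 knockout-only of 114 (10.5%) and 4 control-only of 395. ZNF83 (1411 bp), ZNF532 (1352 bp, a peak that overlapped a control peak further away), ZNF234 (1000 bp) and ZNF618 (987 bp) were the widest knockout-only ones. The control-only ones were ZNF185 (872 bp, a peak that overlapped a knockout peak further away), ZNF287 (784 bp), ZNF682 (645 bp) and ZNF648 (512 bp).

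Gene families that are mostly silent or mostly active had few promoters in 1 list only. Olfactory receptors, silent outside the nose, had a promoter peak at 6 of 392 genes in the control and at 9 in the knockout. Of the 386 without a control peak, 3 were knockout-only (0.777%). These were OR6B3 (1008 bp) and, by either end, OR4S1 (536 bp) and OR2T11 (351 bp). Keratins and keratin-associated proteins gave 2 of 144 (1.39%), KRTAP10-4 and KRTAP5-11 (1250 bp). Housekeeping lists had most promoters open in both. Promoter peaks were found at 81 of 88 ribosomal protein genes in the control and 83 in the knockout, with RPL17 (461 bp, a peak that also counts for the RPL17-C18orf32 readthrough) and RPL36 (440 bp) knockout-only, which is 28.6% of the 7 without a control peak (8.22 to 64.1). The count was 44 of 48 proteasome subunits in both lists, and 49 of 51 cell cycle genes in each. CCND3 (484 bp) was knockout-only, 1 of 2 without a control peak, and CDK6 (579 bp) control-only, 1 of 49 with one. For 84 oxidative phosphorylation subunits the count was 74 in each, with 1 of 10 knockout-only and 1 of 74 control-only, ATP5F1D (482 bp). Of 69 replication-dependent histones, 49 had a promoter peak in the control, and of these H4C12 (348 bp) was control-only. Over all protein-coding genes 7.83% were knockout-only and 1.12% control-only, and single genes are too few to set beside these shares. Imprinted genes had 24 of 39 in both lists, and 23 of the 24 shared peaks were wider in the knockout, with a median log2 ratio of 0.11.

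The DNA of the promoters was read for 15842 protein-coding genes in the RefSeq table, in windows of 300 bases from 250 before to 50 after the start. CpG content was measured as the number of CG pairs observed over that expected from the C and G content. The median ratio was 0.852 at 10470 promoters with a peak in both lists and 0.276 at 4888 with none in either. The 389 knockout-only promoters lay between, at 0.562, and the 95 control-only ones at 0.651. Ratios of 0.6 or more, typical of CpG islands, were found at 88.1%, 19.6%, 48.6% and 51.6% of these classes in the same order. Among promoters without a control peak, the share that had one in the knockout went from 3.57% at a CpG ratio under 0.2 to 20.2% at 0.8 or more. The gene groups with the most knockout-only promoters followed this order within themselves: the median CpG ratio was 0.542 at knockout-only matrix genes against 0.356 at those with no peak in either list, and 0.663 against 0.354 at neurotransmitter receptors.

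**Figure D3:**
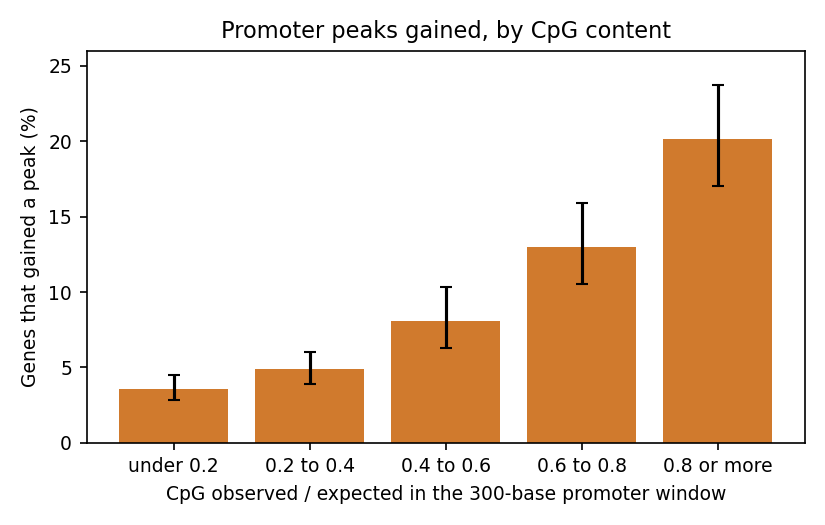
Share of genes without a control promoter peak that had one in the IGF2BP1 knockout list (vertical axis, %), by the CpG observed over expected ratio of their 300-base promoter (horizontal axis), with 95% Wilson intervals. The share is higher in each class than in the one before, from 3.57% to 20.2%.

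The motifs did not share 1 order over the classes. GGGCGG, the SP1 box, was found in 58.5% of all 15842 promoters, in 73.5% of those with a peak in both lists, in 47.8% of knockout-only, in 53.7% of control-only and in 27.3% of those with none. TATAAA was in 9.63% of all promoters, and in 5.07%, 10.8%, 3.16% and 19.4% of the same classes in the same order. TGANTCA, the AP-1 site, was in 5.75% of all, and in 3.56%, 9.25%, 2.11% and 10.2%. The YY1 motif AANATGGCG was in 4.81% of all, 6.98% of those with a peak in both and 0.552% of those with none. It was in 4 of 389 knockout-only promoters (1.03%). CACGTG was in 8.88% of all promoters and 5.66% of knockout-only ones, TGACGTCA in 2.59% and 2.31%, and the NRF1 motif in 1.75% and 0.771%. CCAAT was in 36.4% of all promoters, and in 36.8% of those with a peak in both lists, 28.3% of knockout-only, 29.5% of control-only and 36.3% of those with none. The IRF pair GAAANNGAAA, which was added after the immune promoters had been read, was in 3.18% of all promoters and 2.34% of those with a peak in both lists. Its share was 4.88% of knockout-only promoters, 5.26% of control-only ones and 4.79% of those with none, so knockout-only promoters stood close to the others without a control peak. It was present at OAS3, GBP1 and IFNL3, shown above, and absent from the windows of TREX1, IL11 and CCL28. Among the 45 interferon genes with a sequence it was found at 20 (44.4%), including 11 of 30 with a promoter peak in both lists and 8 of 13 with none, such as ISG15, IFITM1, IFITM3 and BST2. A match describes letters and does not show that a factor binds.

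Long noncoding RNA genes had fewer promoter peaks. Of 18303 lncRNA genes, 4466 (24.4%) had a promoter peak in the control and 5021 (27.4%) in the knockout. Knockout-only promoters numbered 709 (5.12% of those without a control peak) and control-only ones 154 (3.45% of those with one), beside 7.83% and 1.12% for protein-coding genes.

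Most one-list peaks were distal. Distance was again taken from the gene start, or from either end where the start was not known. Peaks over 10 kb away from any gene by this measure made up 45.6% of the control list (17784) and 52.4% of the knockout list (26594). Of the distal knockout peaks 11388 (42.8%, 42.2 to 43.4) had no control counterpart, and of the distal control peaks 2478 (13.9%, 13.4 to 14.5) had no knockout counterpart. These distal peaks were 71.8% of all knockout-only and 63.5% of all control-only peaks. The widest knockout-only one lay from 95337443 to 95339790 on chromosome 11 (2348 bp), 105.0 kb from SESN3, a stress-induced regulator of mTORC1, and 82.8 kb from the nearest control peak. The next lay from 84605929 to 84608118 on chromosome 13 (2190 bp), 723 kb from SLITRK1, a synaptic membrane protein, from 109728885 to 109731013 on chromosome 9 within PALM2AKAP2 (2129 bp), and from 174089117 to 174091212 on chromosome 3 within NLGN1, a postsynaptic adhesion molecule (2096 bp). The widest control-only distal peaks lay from 21925722 to 21927627 on chromosome 22 within PPM1F (1906 bp), and from 121074849 to 121076527 on chromosome 2 (1679 bp), 209 kb from TFCP2L1 and 0.141 kb from a knockout peak. The other 2 lay from 58917090 to 58918764 on chromosome 17 within PPM1E (1675 bp), and from 85775784 to 85777375 on chromosome 8 (1592 bp).

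Genes with many knockout-only distal peaks around them clustered on 1 chromosome. Each peak was given to the nearest protein-coding start, or to either gene end where the start was not known. PCDH9, a protocadherin of the brain, had 60 knockout-only distal peaks (98 distal peaks in the knockout and 45 in the control). It was followed by GPC5, a cell surface proteoglycan, with 48 (67 and 22), SLITRK1 with 41 (47 and 6), KLHL1, a brain kelch protein, with 39 (56 and 18), and LOC647264 with 35 (49 and 18). All 5 lie on chromosome 13, in gene-poor DNA where 1 gene is the nearest to a long stretch. Control-only distal peaks were most numerous near LINC02798 on chromosome 1 (51, with 89 distal peaks in the control and 56 in the knockout), beside the centromere, and then near TUBA3C on chromosome 13 (15), ZNF716 on chromosome 7 (10), and CWH43 on chromosome 4 and KCNJ18 on chromosome 17 (8 each). TUBA3C and KCNJ18 have near-identical relatives elsewhere in the genome, so the placing of reads there is uncertain.

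The lists differed in how peaks were spread over chromosomes. On chromosome 17, which carries IGF2BP1, the knockout list held 1792 peaks and the control list 1856, so that its share of the list was 0.743 times that in the control (0.697 to 0.792). It was the only 1 of 23 chromosomes with fewer knockout than control peaks. Its control-only share was 16.4% and its knockout-only share 14.2%, against 10.1% and 31.2% over the whole lists, and shared peaks were wider by a median log2 ratio of 0.06, the lowest of 23. Chromosome 13 stood at the other end with 1851 knockout and 1023 control peaks, a ratio of shares of 1.39 (1.29 to 1.50), 50.2% knockout-only peaks and a median width ratio of 0.20. Chromosome 18 had a ratio of 1.26 (1.14 to 1.40) and the highest width ratio, 0.21. Chromosomes 4 (1.19) and 3 (1.16) were also above 1, and chromosomes 19 (0.823), 22 (0.855), 15 (0.873) and 10 (0.875) below it. Across the 23 chromosomes, which share the same 2 lists and differ in gene density, the ratio of shares and the median width ratio moved together (Pearson r 0.939, Spearman's rank correlation 0.935, n = 23). Among peaks at gene starts alone, or at either end where the start was not known, the ratios ranged from 0.935 (chromosome 17) to 1.08 (chromosome 13). All 23 intervals included 1. On chromosome 8 no protein-coding gene had a known start, so its ratio of 1.03 rests on gene ends for those genes.

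**Figure D4:**
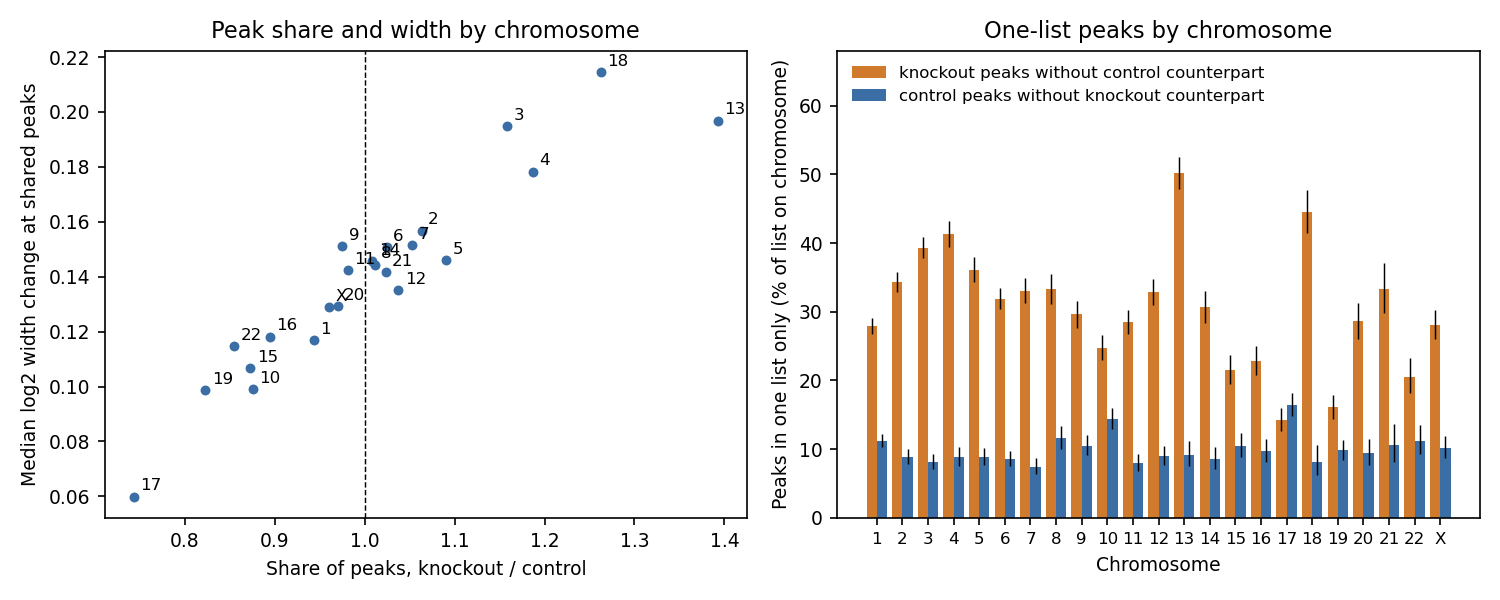
Left, for chromosomes 1 to 22 and X, the ratio of the share of peaks in the IGF2BP1 knockout list to that in the control list (horizontal axis) and the median log2 width ratio at shared peaks (vertical axis); right, the percentage of each chromosome's peaks found in 1 list only, with 95% Wilson intervals. Chromosome 17 lies lowest on both axes (0.743 and 0.06), and chromosome 13 has the highest knockout-only share (50.2%).

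The difference on chromosome 17 ran along its length. Of its 17 windows of 5 Mb with a mean of at least 20 peaks, 16 had a log2 ratio of shares below 0, against 261 of 566 windows in all. All 12 windows of chromosome 19 and all 8 of chromosome 22 were also below 0, with 25 of 27 on chromosome 10 and 15 of 16 on chromosome 15, while 12 of 13 on chromosome 18, 35 of 40 on chromosome 3 and 32 of 37 on chromosome 4 were above it. The lowest 5 windows included 3 in the first 25 Mb of chromosome 17. The lowest of these ran from 20 to 25 Mb (33 knockout and 47 control peaks, log2 ratio -0.88). It holds KCNJ18, near which the placing of reads is uncertain, and had 3 knockout-only and 17 control-only peaks. The others ran from 5 to 10 Mb (8 knockout-only and 35 control-only peaks, -0.67) and from 0 to 5 Mb (126 knockout and 150 control peaks, -0.63). Below 25 Mb, a bound chosen after the values were seen, chromosome 17 held 438 knockout and 521 control peaks, a ratio of shares of 0.647 with 23.2% of control peaks in the control alone, and shared peaks differed in width by a median log2 ratio of 0.01. From 25 Mb on, the ratio was 0.781. In the 10 Mb on the lower side of IGF2BP1 there were 337 knockout and 361 control peaks (32 knockout-only, 53 control-only). In the 10 Mb on the higher side there were 181 and 162 (34 and 14). These are counts and not shares of lists that hold 50917 and 39194 peaks, so more knockout peaks in a stretch need not mean a larger share. The remaining low windows were on other chromosomes and lay beside centromeres. They ran from 15 to 20 Mb on chromosome 13 (17 knockout and 31 control peaks, -1.23) and from 120 to 125 Mb on chromosome 1 (97 and 126, -0.75). In the latter window 55 control peaks had no knockout counterpart.

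On chromosome 13 the high windows formed 1 stretch. The window from 85 to 90 Mb held 120 knockout and 31 control peaks (log2 ratio 1.56) and only 4 protein-coding genes, the window from 80 to 85 Mb 107 and 28 (1.54), and the window from 90 to 95 Mb 152 and 61 (0.93). Between 60 and 95 Mb, bounds likewise chosen after the values were seen, 64.7% of 970 knockout peaks had no control counterpart and the 334 shared peaks were wider by a median log2 ratio of 0.29. Below 60 Mb the knockout-only share was 33.6% and the width ratio 0.15, and from 95 Mb on they were 35.5% and 0.19. The other high windows were 160 to 165 Mb on chromosome 4 (51 and 18, 1.10) and 145 to 150 Mb on chromosome 3 (70 and 28, 0.93). Copy number was not measured in these files, and its part in the chromosome differences was not tested.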

How the data were processed

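Accessible chromatin was measured by ATAC-seq, and the authors deposited 1 peak list for each group, with 3 columns that give chromosome, start and end in bp and no score. The build was GRCh38, and fastp 0.24.1, BWA 0.7.17, MACS2 3.0.0 and bedtools were used, per the submitters' processing notes, which give no settings, thresholds, transposase shift or way of pooling libraries. Depth per library was not given in the sources used here.

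Lists were compared in Python 3.11.15 with numpy 2.4.6, pandas 2.3.3 and scipy 1.17.1, and figures drawn with matplotlib 3.10.9. The scripts were tested on simulated lists with known answers. Peak positions are printed counted from 1. Gene positions and promoter sequences come from RefSeq tables of GRCh38.p14. The start was known for 15842 of 20037 protein-coding and 11461 of 18303 lncRNA genes, and either gene end was used for the others. Peaks on chromosomes 1 to 22, X and Y were placed relative to genes. On unplaced sequences lay 224 control and 211 knockout peaks. Windows of 5 Mb had a mean of at least 20 peaks, with 0.5 added to each count. Shares carry 95% Wilson intervals, medians intervals from order statistics and ratios of shares log intervals, all for counting error over peaks or genes only. No p-value was computed, since each group is 1 list.

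The genes named were IGF2BP1, IGF2BP2 and IGF2BP3, the 8 widest promoters of each one-list class with no peak of the other list within 5 kb, the 6 largest increases and 6 largest decreases in width, up to 4 members of each gene list in each direction, the 4 widest distal peaks of each class, the 5 genes nearest to the most distal one-list peaks and the 5 highest and 5 lowest windows. Other members, named to account for a list, were chosen after their values were seen. Some genes that the rule names are not reported here. The comparison, the members and the gene lists were chosen with earlier results of these data known. Alternatives covered list length, overlap rule, peak width, promoter window, gene positions, distal distance and window size.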

Additional observations from a re-analysis of the deposited data

How the results depend on the processing

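No paired analysis was possible because each group is 1 pooled list whose columns carry no replicate number, and for the same reason no library could be left out. Of 82 values computed under 16 alternative settings for 18 results, 58 stayed within the limits set and 24 moved. A change of direction was scored only for the width change and the ratios of shares on chromosomes 17 and 13. Of those values, 0 changed direction, and for counts and other shares direction was not scored. Limiting the knockout list to its 39194 widest peaks moved most. The share of knockout peaks with a control counterpart became 76.2%, knockout-only peaks 9314, control-only peaks 9060, the median log2 width ratio 0.15, control-only promoters 375, the knockout-only share of promoters 5.63%, that of olfactory receptors 0.259%, distal knockout-only peaks 6695 and distal control-only peaks 5664. Lists of equal length give nearly equal one-list counts by construction, and this setting removes narrow peaks from the knockout list alone, so length and width were not separated. Trimming each peak to its central 200 bp gave 63.9% shared and 6651 control-only peaks. Leaving out peaks under 500 bp gave 65.7% shared, 2280 control-only peaks and a width ratio of 0.12. As a difference of width percentiles within each list, the median width change was 1.14 percentile points. The knockout-only share of promoters was 7.08% with a window of 500 bp, 9.14% with 2 kb and 8.88% with either gene end. Genes with a known start alone, an alternative chosen after seeing the data, left 95 control-only promoters. Distal peaks over 50 kb from a gene start numbered 4894 knockout-only and 977 control-only. With promoter peaks alone, the ratio of shares was 0.935 on chromosome 17 and 1.08 on chromosome 13. Fewer peaks or genes enter the shorter lists and windows by construction, and the cause of the other differences was not tested. Unknown depth limits every statement about a peak missing from 1 list, above all for peaks under 500 bp.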
